A study of Mus musculus with 9 samples.

Results

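Wnt signaling was followed through 52 genes for its ligands, receptors, antagonists and effectors, taken by gene symbol from the 23332 gene rows of an RNAseq of mouse oviductal epithelial (MOE) cells. The members were 10 Wnt ligands, 13 receptors and co-receptors (8 Frizzled genes, *Lrp5*, *Lrp6*, *Ror1*, *Ror2* and *Ryk*), 7 genes of the R-spondin module, 8 genes for secreted antagonists and their receptor *Kremen1*, 9 cytoplasmic components, 4 nuclear factors and *Porcn*, whose enzyme attaches the lipid that Wnt proteins need for secretion. FVB MOE cells are a line from 1 clone of secretory cells of the FVB strain, kept in medium with estradiol until they were starved of hormone for 48 h. Treatment lasted 24 h, with 0.1% DMSO as solvent control, 1 nM estradiol (E2) or with 100 nM 4-hydroxytamoxifen (4OHT), the active metabolite of tamoxifen, dissolved in DMSO. Each condition had 3 samples, numbered 1 to 3 in the labels, the compounds were given at different doses, and no sample received both. Nothing in the labels says that the samples came from separate cultures, so p-values measure the spread between these samples, which may be technical.

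Wnt proteins bind Frizzled receptors together with LRP co-receptors. In the canonical branch, Dishevelled proteins then disable a complex of Axin, APC and GSK3β that otherwise marks β-catenin for destruction, and β-catenin enters the nucleus to work with TCF and LEF factors. Dickkopf and secreted Frizzled-related proteins act outside the cell, R-spondins acting through LGR receptors keep Frizzled on the surface, and other branches through ROR and RYK receptors guide polarity and movement. In the mouse, *Wnt4* and *Wnt7a* are known for their part in forming and patterning the Müllerian duct, from which the oviduct arises.

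Expression is given as FPKM (fragments counted per kilobase of transcript and scaled for depth), a unit in which levels of different genes may be compared. Rows with at least 1 FPKM in at least 3 samples entered the test, which was limma on log2(FPKM + 1), with Benjamini-Hochberg adjustment over all rows tested and a threshold of 0.05 for adjusted p. Because 1 is added before the log, a log2 difference understates the change of genes near 1 FPKM. The fit was made without the replicate number and again with it as a block, which compares samples of the same number. Deviations from the condition means were shared within a number, with correlations of 0.499 to 0.817 in all 9 pairs of samples, against 0.067 at most in the 18 pairs of different number. The deviations of a condition cancel, which pushes the correlations of different number down, so those 18 pairs are no independent baseline. In bulk RNA, a lower share of cells that express a gene and less RNA per cell cannot be told apart.

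The libraries summed to between 522517 and 588640 FPKM, and low values placed the depth of the 4OHT libraries at 0.822 to 0.924 and of the E2 libraries at 0.838 to 1.07 times that of DMSO replicate 1, with the other DMSO libraries at 1.04 and 1.18. *Pgr*, a classic estrogen receptor target, was at 9.58, 1.36 and 1.16 FPKM in DMSO replicates 1, 2 and 3 and at 38.1, 21.1 and 15.9 in E2, so the replicate 1 libraries stood above their groups in it. The oviduct secretory marker *Pax8* was at 105 to 150 FPKM and the keratin genes *Krt7*, *Krt8*, *Krt18* and *Krt19* at 112 to 927. In contrast, *Ovgp1*, another oviduct marker, was at only 1.44 to 2.61 FPKM, and *Epcam* and *Cdh1*, defining genes of epithelium, stayed under 0.43. Defining genes of leukocytes (*Ptprc*, *Cd3e*), fibroblasts (*Pdgfra*, *Col1a2*, *Thy1*) and endothelium (*Pecam1*, *Cdh5*) were under 0.12 FPKM in all 9 samples, but other genes of the same lists were not, with the leukocyte marker *Cd68* at 3.01 to 4.01 FPKM and the fibroblast marker *Col1a1* at 1.84 to 6.73. The 4-gene leukocyte list summed to 3.97 to 4.01 FPKM in DMSO, 3.54 to 3.84 in E2 and 3.02 to 3.71 in 4OHT. Some markers moved with E2 in the blocked fit, while none on these lists passed for 4OHT versus DMSO. Of the 9 oviduct epithelium markers 7 were tested and 6 rose, beside 12.2% of all rows that passed as higher in E2. *Ovgp1* was lower in E2 than in DMSO at each replicate number but did not pass (log2 difference -0.29, limma adjusted p = 0.065 with the block). *Dcn* rose in a 6-gene fibroblast list that summed to 3.64 to 7.79 FPKM in DMSO and 10.7 to 23.2 in E2. *Kdr* rose in a 3-gene endothelial list that summed to 0.624 to 0.837 and 1.17 to 1.40. *Msln* and *Upk3b* fell in a 3-gene mesothelial list that summed to 120 to 192 and 100 to 164. In the 4-gene smooth muscle list, summing to 947 to 1451 FPKM in DMSO and 1300 to 1756 in E2, *Acta2* rose and *Cnn1* fell, while *Foxj1* fell in a 6-gene ciliated list that summed to 16.0 to 20.9 and 11.7 to 17.1. The part of depth and of these markers in the Wnt results was not tested.

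Of the 52 genes, 33 reached the filter and 19 did not. The 19 had no value above 0.526 FPKM. Of them, *Wnt5a*, *Frzb*, *Wif1*, *Rspo1*, *Rspo3* and *Ror2* were listed at 0 in all 9 samples, *Wnt10a*, *Dkk1*, *Sfrp1*, *Sfrp2*, *Rspo2*, *Nkd1* and *Nkd2* were at 0 in some samples and never above 0.0529, and *Wnt5b*, *Wnt6*, *Wnt11*, *Fzd3*, *Dkk2* and *Tcf7l1* were low but above 0 throughout. A listed 0 may be a failed estimate, since 242 of the 11339 rows past the filter held at least 1 exact 0 beside a typical level of 1 FPKM or more. None of the 52 members held such a 0. The filter was thus reached by 5 of 10 ligands, 11 of 13 receptors and co-receptors, 7 of 9 cytoplasmic components, 3 of 4 nuclear factors and *Porcn*, but by 2 of the 8 antagonist genes (*Dkk3* and *Kremen1*) and by none of the 3 R-spondins.

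**Figure D1:**
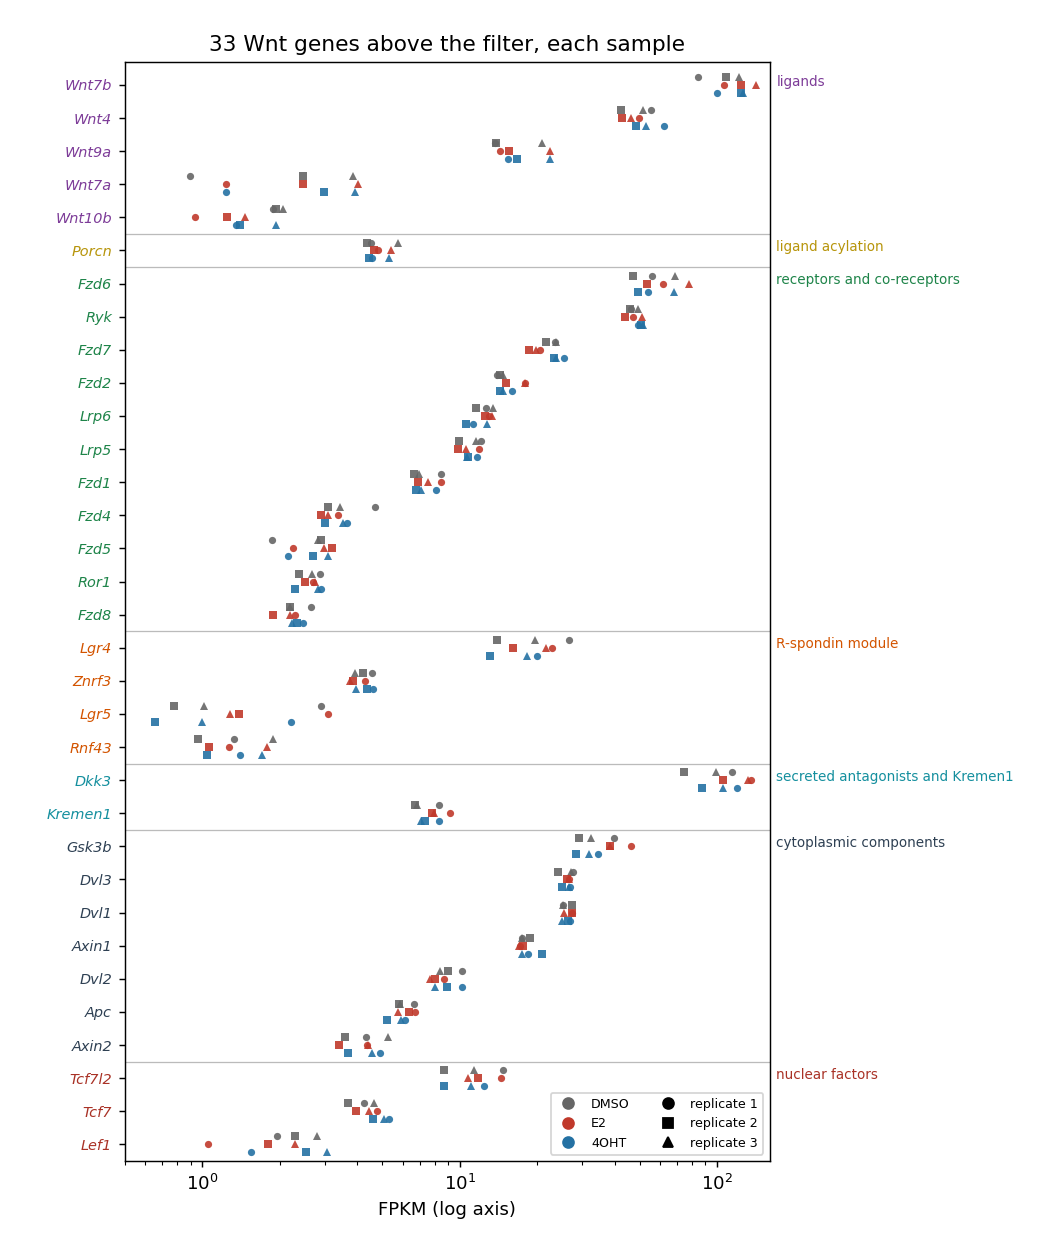
FPKM (log axis) of the 33 Wnt genes past the filter in each of the 9 samples, grouped by role, with colour for the condition and symbol for the replicate number. *Wnt7b*, *Dkk3*, *Fzd6*, *Wnt4* and *Ryk* lie at the right with means of 40 FPKM or more, and for *Wnt7a* and *Lgr5* the points separate by replicate number more than by condition.

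Without the replicate number, none of the 33 tested members passed in any comparison, where 0.592% of 11312 rows passed for E2 versus DMSO, 0% for 4OHT versus DMSO and 0.327% for E2 versus 4OHT. At an unadjusted p under 0.05 the members numbered 3, 1 and 2, beside 1237, 295 and 1333 of the 11312 rows. With the block, 10 of 33 members (30.3%) passed for E2 versus DMSO, 6 higher and 4 lower in E2, beside 18.7% of all 11282 rows (12.2% higher and 6.56% lower). *Dkk3*, *Gsk3b*, *Wnt7b*, *Fzd2*, *Fzd6* and *Kremen1* rose, and *Wnt10b*, *Lef1*, *Fzd7* and *Dvl2* fell. For 4OHT versus DMSO none of the members passed with the block, beside 0.062% of all rows. In that fit 9 members were at an unadjusted p under 0.05, beside 1555 of all 11282 rows. For E2 versus 4OHT, 8 members (24.2%) passed, 5 higher and 3 lower in E2, beside 21.9% of all rows (10.8% higher and 11.1% lower). The first share lay above that of all rows and the last near it. The members were not tested as a set. They and the gene lists below were chosen with earlier results of these data known, so their shares are no independent evidence. The changes were small, from -0.42 to 0.39 on the log2(FPKM + 1) scale for E2 versus DMSO over the 33 members, with a median size of 0.10 against 0.08 over all rows tested.

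**Figure D2:**
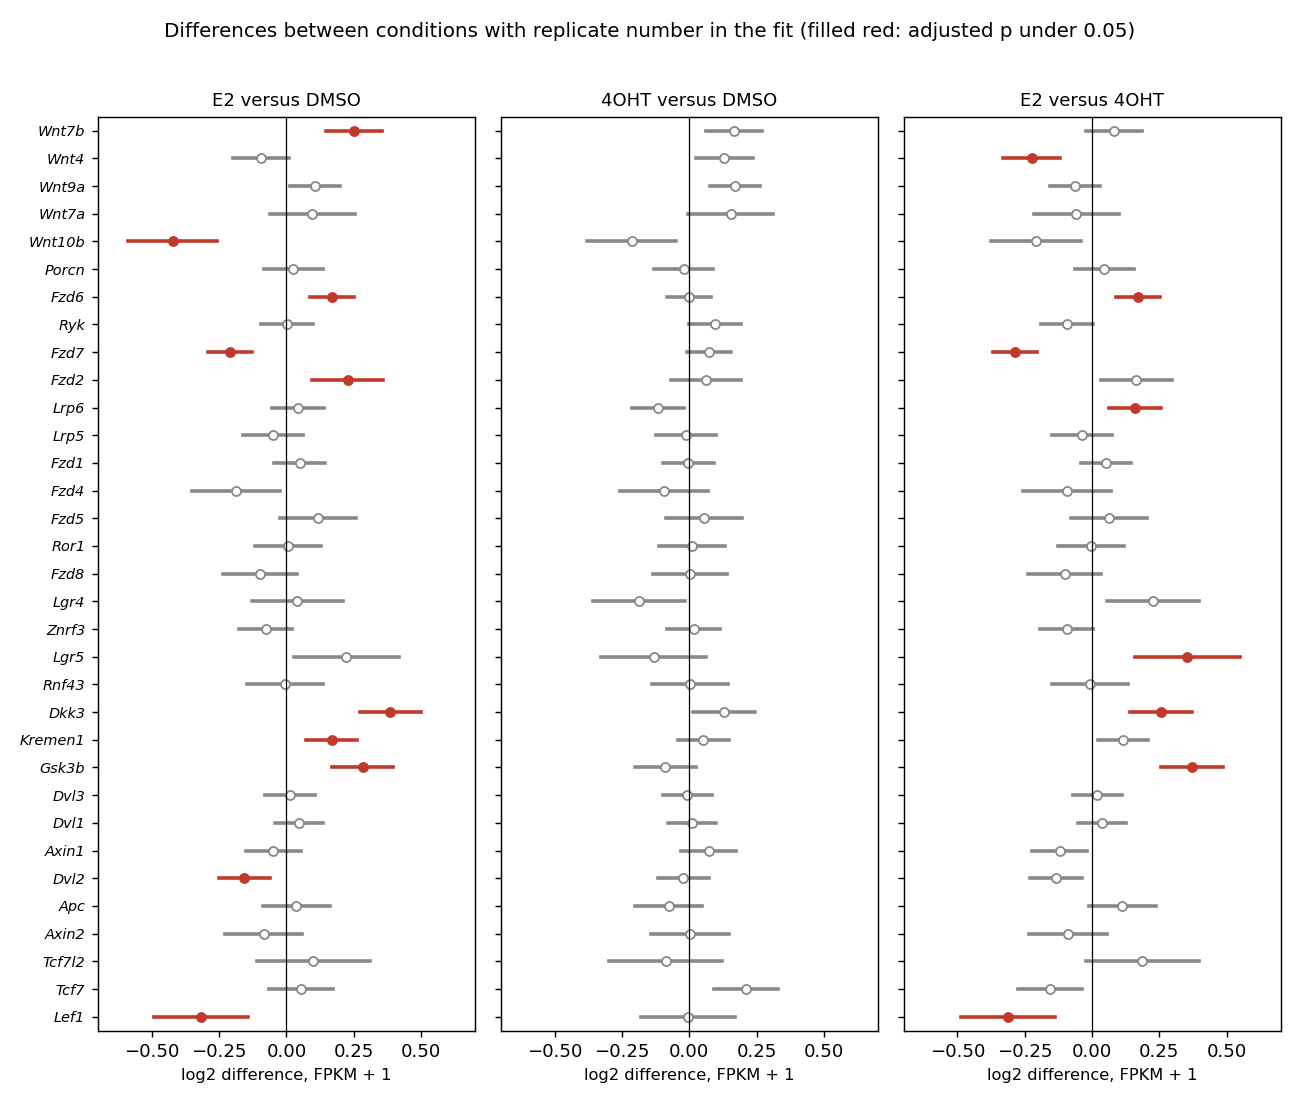
Log2 difference in FPKM + 1 between conditions for the 33 tested genes, with 95% intervals from the blocked limma fit (3 samples per condition). Filled red points passed at an adjusted p under 0.05, which 10 genes did for E2 versus DMSO, 0 for 4OHT versus DMSO and 8 for E2 versus 4OHT.

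Among the ligands, *Wnt7b*, a ligand known from lung and kidney epithelium, was the most abundant and made up 59.7% of the summed ligand FPKM in DMSO. Its FPKM was 84.4, 108 and 121 in DMSO replicates 1, 2 and 3, 106, 124 and 142 in E2, and 100, 124 and 127 in 4OHT. The 3 E2 samples were each above the DMSO sample of their number, although the groups overlapped. The mean rose 1.19-fold with E2, a log2 difference of 0.25 ± 0.05 (SE, limma adjusted p = 0.0079 with the block, 0.608 without). This SE, like those below, came from the blocked fit to all 9 samples, with 3 samples per condition.

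*Wnt4*, which signals in female reproductive tract development, stood at 55.3, 42.4 and 51.5 FPKM in DMSO, 49.7, 42.9 and 46.3 in E2, and 62.1, 48.3 and 53.1 in 4OHT. All 3 E2 values were under the 4OHT values of their number, with overlapping groups. The difference E2 versus 4OHT was -0.22 ± 0.05 (SE; limma adjusted p = 0.013 with the block, 0.471 without). Against DMSO neither compound moved *Wnt4* past the threshold, with 95% intervals of -0.20 to 0.01 for E2 and 0.03 to 0.24 for 4OHT in the blocked fit.

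*Wnt10b*, a canonical ligand known from mammary gland and fat, was weak, with 1.88, 1.94 and 2.05 FPKM in DMSO, 0.938, 1.25 and 1.46 in E2, and 1.35, 1.41 and 1.93 in 4OHT. Here the highest E2 value lay below the lowest DMSO value, and the 4OHT values overlapped both groups. The mean in E2 was 0.622 times that in DMSO, and the log2(FPKM + 1) difference was -0.42 ± 0.07 (SE; limma adjusted p = 0.0059 with the block, 0.228 without). Of the remaining tested ligands, *Wnt9a* was at 13.7 to 22.5 FPKM and *Wnt7a* at 0.893 to 4.03. Neither passed in any comparison, and both varied more with replicate number than with treatment, with means of 1.12, 2.63 and 3.93 FPKM for *Wnt7a* over the samples numbered 1, 2 and 3. *Porcn* was at 4.36 to 5.76 FPKM and passed in no comparison, with a 95% interval for E2 versus DMSO of -0.08 to 0.14.

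The receptors were led by *Fzd6*, a Frizzled known for planar polarity in hair and skin, at 55.7, 47.1 and 68.8 FPKM in DMSO, 61.9, 53.7 and 77.7 in E2, and 53.7, 49.4 and 67.8 in 4OHT. E2 was the highest condition at each replicate number, while the groups overlapped because the numbers differed more than the conditions. The log2 difference was 0.17 ± 0.04 (SE) both against DMSO (limma adjusted p = 0.014 with the block, 0.753 without) and against 4OHT (0.014 and 0.692).

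*Fzd7*, a Frizzled known from stem cells of the gut, was 23.6, 21.6 and 23.6 FPKM in DMSO, 20.5, 18.6 and 19.9 in E2, and 25.4, 23.3 and 23.8 in 4OHT. All E2 values were below all values of the other 2 conditions. *Fzd7* fell by 0.21 ± 0.04 (SE) on the log2 scale against DMSO (limma adjusted p = 0.0057 with the block, 0.252 without) and was lower in E2 than in 4OHT by a difference of -0.29 ± 0.04 (0.0018 and 0.156).

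*Fzd2*, a Frizzled that takes part in canonical and other branches, moved the other way, from 14.0, 14.3 and 14.7 FPKM in DMSO to 17.9, 15.1 and 18.0 in E2, with 16.0, 14.3 and 14.8 in 4OHT. The E2 and DMSO samples did not overlap. The difference was 0.23 ± 0.06 (SE; limma adjusted p = 0.028 with the block, 0.311 without), and against 4OHT it was 0.16 with an adjusted p of 0.071 with the block. Thus 1 Frizzled gene fell and 2 rose with E2, and the sum over the 13 receptors and co-receptors was 184 FPKM in DMSO, 191 in E2 and 188 in 4OHT.

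*Ryk*, the receptor with an inactive kinase domain, was nearly as abundant as *Fzd6*, at 46.4, 46.0 and 49.4 FPKM in DMSO, 47.3, 43.8 and 51.2 in E2, and 49.2, 50.7 and 51.8 in 4OHT. The groups overlapped, and the 95% interval for E2 versus DMSO was -0.09 to 0.10. The canonical co-receptor gene *Lrp6* was at 12.7, 11.6 and 13.5 FPKM in DMSO, 13.0, 12.5 and 13.4 in E2, and 11.2, 10.6 and 12.8 in 4OHT. Each 4OHT value was the lowest of its number, and *Lrp6* was higher in E2 than in 4OHT by 0.16 ± 0.04 on the log2 scale (SE; limma adjusted p = 0.032 with the block, 0.456 without). *Lrp5*, *Fzd1*, *Fzd4*, *Fzd5*, *Fzd8* and *Ror1* lay between 1.87 and 12.1 FPKM and passed in no comparison.

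In the R-spondin module, which sets how much Frizzled stays on the surface, the 2 receptor and 2 ligase genes passed the filter, while *Rspo1* and *Rspo3* were listed at 0 and *Rspo2* was above 0 in 2 samples, at 0.0076 and 0.0082 FPKM. *Lgr4*, an R-spondin receptor, held 73.6% of the module's summed FPKM in DMSO, with 26.5, 14.0 and 19.5 FPKM in DMSO, 22.7, 16.1 and 21.7 in E2, and 20.0, 13.1 and 18.3 in 4OHT. Replicate 2 was the lowest in each condition, the groups overlapped, and no comparison passed (95% interval for E2 versus DMSO of -0.13 to 0.21). *Znrf3*, a ligase that removes Frizzled, was at 4.55, 4.23 and 3.94 FPKM in DMSO, 4.30, 3.86 and 3.74 in E2, and 4.59, 4.35 and 3.96 in 4OHT, again with overlap and no call.

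*Lgr5*, an R-spondin receptor and stem cell marker that is itself a known β-catenin target, was at 2.89, 0.780 and 1.02 FPKM in DMSO, 3.09, 1.39 and 1.28 in E2, and 2.21, 0.657 and 1.00 in 4OHT. The replicate 1 libraries were above all others, whatever the treatment. E2 was the highest condition at each number, which passed against 4OHT (0.35 ± 0.08, SE; limma adjusted p = 0.023 with the block, 0.682 without) and not against DMSO (0.22, adjusted p = 0.10 with the block). The ligase gene *Rnf43* was at 0.961 to 1.89 FPKM with no call.

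The antagonist group was almost only *Dkk3*, which made up 92.8% of the summed FPKM of its group in DMSO. *Dkk3* encodes a divergent Dickkopf protein that, unlike DKK1, is not known to bind LRP6 strongly. The gene lies on chromosome 7 at 112116017 to 112159057 on the reverse strand of GRCm38. It was at 114, 74.2 and 98.9 FPKM in DMSO, 135, 105 and 132 in E2, and 119, 87.2 and 106 in 4OHT. At each number E2 was the highest and DMSO the lowest condition, and the groups overlapped. *Dkk3* showed the largest rise of the 33 members against DMSO, 1.30-fold in the mean and 0.39 ± 0.05 on the log2 scale (SE; limma adjusted p = 0.0016 with the block, 0.480 without), and was higher in E2 than in 4OHT by 0.26 ± 0.05 (0.011 and 0.540). The 4OHT difference from DMSO was 0.13, with an adjusted p of 0.333 with the block. *Kremen1*, which encodes a receptor for Dickkopf proteins that removes LRP6, was at 8.34, 6.72 and 6.85 FPKM in DMSO, 9.13, 7.83 and 7.97 in E2, and 8.31, 7.36 and 7.10 in 4OHT. Each E2 value was the highest of its number, with overlap between groups. The rise of *Kremen1* against DMSO was 0.17 ± 0.04 (SE, limma adjusted p = 0.026 with the block, 0.571 without).

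Of the cytoplasmic components, *Gsk3b*, the kinase gene of the destruction complex, was the most abundant. Its FPKM was 39.6, 29.1 and 32.4 in DMSO, 46.4, 38.5 and 38.4 in E2, and 34.4, 28.3 and 31.9 in 4OHT. Every E2 value exceeded every 4OHT value, and E2 exceeded DMSO at each number, although DMSO replicate 1 lay above E2 replicates 2 and 3. *Gsk3b* rose 1.22-fold in the mean against DMSO, or 0.28 ± 0.05 on the log2 scale (SE; limma adjusted p = 0.0065 with the block, 0.459 without), and was higher than in 4OHT by 0.37 ± 0.05 (0.0023 and 0.355).

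The 3 Dishevelled genes relay the receptor signal. *Dvl1* was at 25.2, 27.4 and 25.2 FPKM in DMSO, 27.4, 27.4 and 25.5 in E2, and 26.9, 26.4 and 24.9 in 4OHT. *Dvl3* was at 27.6, 24.1 and 27.2 in DMSO, 26.6, 26.1 and 26.7 in E2, and 26.8, 25.0 and 26.6 in 4OHT. These hardly varied and passed in no comparison, with 95% intervals for E2 versus DMSO of -0.04 to 0.13 for *Dvl1* and -0.08 to 0.11 for *Dvl3*. *Dvl2* was lower, at 10.2, 9.04 and 8.35 FPKM in DMSO, 8.68, 8.03 and 7.68 in E2, and 10.2, 8.92 and 8.04 in 4OHT. E2 was the lowest condition at each number, the groups overlapped, and *Dvl2* fell by 0.16 ± 0.04 against DMSO (SE; limma adjusted p = 0.035 with the block, 0.603 without), the weakest of the 10 calls. The scaffold genes *Axin1* (17.0 to 20.9 FPKM) and *Apc* (5.20 to 6.73) and the feedback gene *Axin2* (3.40 to 5.25) passed in no comparison.

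*Tcf7l2* made up 63.7% of the nuclear factor FPKM in DMSO, at 14.7, 8.69 and 11.3 FPKM in DMSO, 14.4, 11.8 and 10.7 in E2, and 12.4, 8.68 and 11.1 in 4OHT, with overlap and no call. *Tcf7*, a TCF gene and known β-catenin target, was at 4.24, 3.70 and 4.65 FPKM in DMSO, 4.78, 3.96 and 4.44 in E2, and 5.30, 4.60 and 5.10 in 4OHT. The 4OHT values were the highest at each number, but the 0.21 difference from DMSO had a limma adjusted p of 0.250 with the block and 1.00 without. *Lef1*, whose product acts with β-catenin, was at 1.94, 2.29 and 2.79 FPKM in DMSO, 1.05, 1.80 and 2.30 in E2, and 1.54, 2.54 and 3.05 in 4OHT. E2 was the lowest condition at each number, and the groups overlapped. *Lef1* fell by 0.32 ± 0.08 against DMSO (SE; limma adjusted p = 0.024 with the block, 0.629 without), with a mean 0.733 times that in DMSO, and was lower in E2 than in 4OHT by a difference of -0.31 ± 0.08 (0.025 and 0.540).

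**Figure D3:**
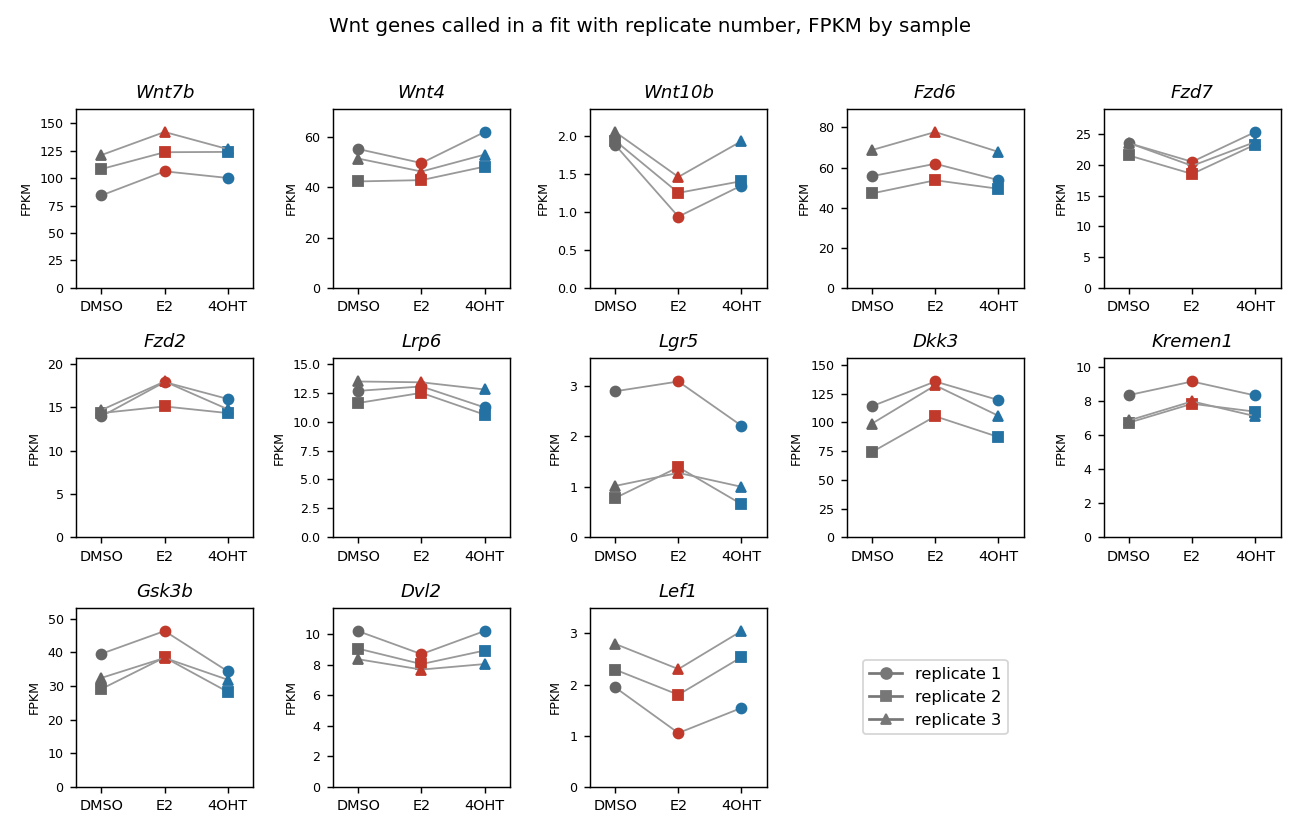
FPKM (axes from 0) of the 13 Wnt genes that passed a comparison with the replicate number as a block, by condition, with lines joining the samples of one number. *Dkk3*, *Gsk3b* and *Fzd6* peak in E2 at each number, *Wnt10b*, *Fzd7*, *Dvl2* and *Lef1* dip there, and the *Lgr5* line of replicate 1 runs above the others.

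The calls depended to different degrees on single libraries. In the blocked fit, *Dkk3*, *Gsk3b* and *Wnt10b* passed for E2 versus DMSO with any 1 sample or any replicate number left out, and *Gsk3b* and *Fzd7* did so for E2 versus 4OHT. *Wnt7b* and *Fzd7* passed for E2 versus DMSO without any 1 sample, but *Wnt7b* had a limma adjusted p of 0.063 without replicate number 1 and 0.051 without number 3, and *Fzd7* had 0.075 without number 3. *Fzd6* passed against DMSO in 6 of 9 fits without 1 sample and lost its call without DMSO replicate 2, DMSO replicate 3 or E2 replicate 3 (0.082, 0.072 and 0.062). *Fzd2* passed in 5 of 9 and lost it without replicates 1 or 3 of DMSO or E2 (up to 0.111). *Kremen1* passed in 5 of 9 and lost it without replicates 2 or 3 of DMSO or E2 (up to 0.124). *Lef1* passed in 5 of 9 and lost it without DMSO replicate 1 or any 1 E2 sample (up to 0.075), and *Dvl2* passed in 2 of 9 only, without E2 replicate 3 and without 4OHT replicate 3, its adjusted p reaching 0.127 without DMSO replicate 3. For E2 versus 4OHT, leaving out 4OHT replicate 1 took the adjusted p to 0.089 for *Fzd6*, 0.080 for *Wnt4*, 0.060 for *Dkk3*, 0.057 for *Lef1*, 0.110 for *Lgr5* and 0.142 for *Lrp6*. Leaving out 4OHT replicate 2 took it to 0.055 for *Wnt4*, 0.107 for *Lef1*, 0.099 for *Lgr5* and 0.130 for *Lrp6*. E2 replicate 1 (*Lef1* 0.071, *Lrp6* 0.076), E2 replicate 2 (*Lef1* 0.062, *Lgr5* 0.077, *Lrp6* 0.104), 4OHT replicate 3 (*Lef1* 0.073) and DMSO replicate 3 (*Lrp6* 0.061) also ended single calls. Without the samples numbered 1, which stood apart in *Pgr*, 4 members passed for E2 versus DMSO (12.7% of all rows) and 5 for E2 versus 4OHT (9.29%).

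Replicate number accounted for more of the spread than treatment in most members. The range of the 3 replicate number means on the log2(FPKM + 1) scale exceeded the range of the 3 condition means in 28 of 33 members (84.8%), as it did in 66.7% of 11097 rows without a missing value. The exceptions were *Wnt10b*, *Fzd2*, *Fzd7*, *Gsk3b* and *Tcf7*. The widest ranges over numbers were 1.22 for *Wnt7a*, 0.95 for *Lgr5*, 0.64 for *Lgr4*, 0.57 for *Lef1* and 0.57 for *Wnt9a*, against 0.15, 0.35, 0.23, 0.32 and 0.17 over conditions. Replicate number 1 had the highest mean in 19 members and the lowest in 6, while over the 11097 rows it was the highest in 4243 and the lowest in 4108. The labels do not say what the number marks.

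**Figure D4:**
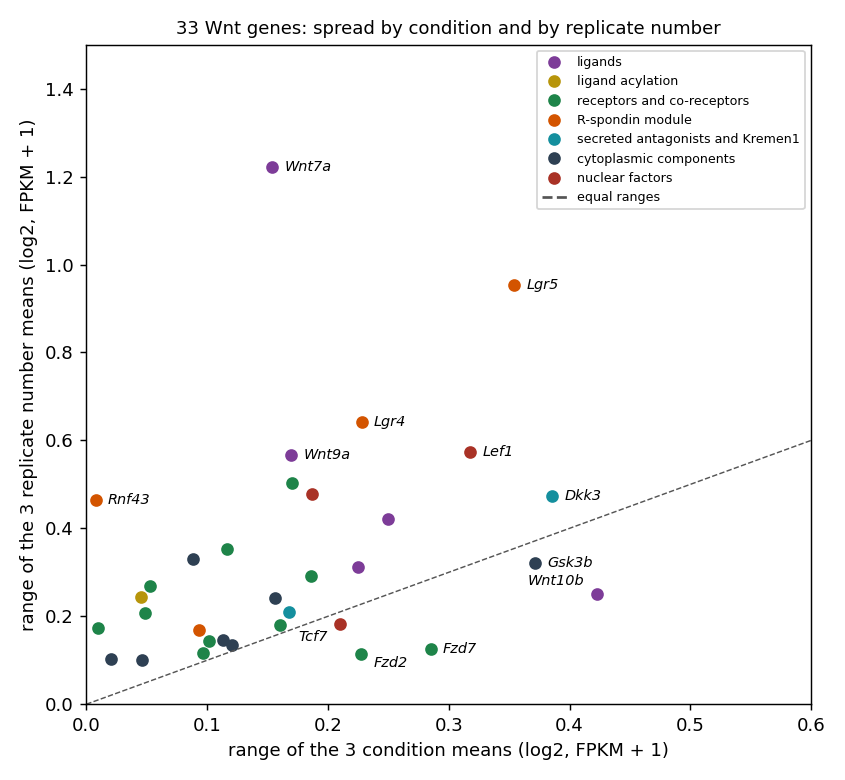
Range of the 3 condition means (x axis) against the range of the 3 replicate number means (y axis), both in log2(FPKM + 1), for the 33 tested Wnt genes, coloured by role. Points above the dashed line, 28 of 33, varied more by replicate number than by condition, with *Wnt7a* (1.22 against 0.15) and *Lgr5* (0.95 against 0.35) the farthest up.

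A further list of 70 genes of the pathway held 66 in the files, of which 37 were tested. Without the block, 1 passed for E2 versus DMSO and 0 in the other comparisons. Those at an unadjusted p under 0.05 numbered 5, 1 and 4, beside 1237, 295 and 1333 of 11312 rows. With the block, 10 of 37 (27.0%) passed for E2 versus DMSO, 8 higher and 2 lower, beside 18.7% of all rows. For 4OHT versus DMSO 0 passed, beside 0.062%. For E2 versus 4OHT 7 (18.9%) passed, 5 higher and 2 lower, beside 21.9%. The last share lay below that of all rows. *Lgr6*, the third R-spondin receptor, was the gene that passed in both fits, at 9.47, 7.70 and 9.36 FPKM in DMSO, 15.7, 16.1 and 14.9 in E2, and 9.98, 9.94 and 11.5 in 4OHT. All E2 values were above all others, and the difference from DMSO was 0.75 (limma adjusted p = 0.011 without the block and 0.00044 with it). *Gpc4*, a surface proteoglycan gene, *Prickle1*, a planar polarity gene, *Bcl9*, whose product binds β-catenin, and *Wls*, the carrier that exports Wnt proteins, rose against DMSO in the blocked fit by 0.29, 0.47, 0.39 and 0.14. The cytoplasmic component gene *Dact2* also rose, by 0.23 (limma adjusted p = 0.044 with the block, 0.805 without). *Ctnnb1*, the β-catenin gene, was at 201 to 241 FPKM in DMSO and 218 to 269 in E2, a rise of 0.13 (limma adjusted p = 0.044 with the block, 0.646 without).

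Common β-catenin targets did not move one way. Of 15 listed, 8 of them among the 52 members and the others also counted in the further list above, 10 were tested. For E2 versus DMSO 4 passed with the block, 1 higher and 3 lower, beside 18.7% of all rows. None passed without the block, and 1 was at an unadjusted p under 0.05, beside 1237 of 11312 rows. *Sp5* rose, from 1.53, 1.31 and 1.19 FPKM in DMSO to 3.50, 2.06 and 2.17 in E2, with 2.96, 1.57 and 1.33 in 4OHT. *Ccnd1*, the cyclin D1 gene, fell in the same fit, from 111, 271 and 192 FPKM to 83.2, 161 and 141, with 135, 267 and 192 in 4OHT. *Myc* fell from 55.8, 98.1 and 78.5 FPKM to 50.6, 73.7 and 67.0, with 63.9, 103 and 77.2 in 4OHT. The log2 differences were 0.59, -0.54 and -0.26 (limma adjusted p = 0.0070, 0.0023 and 0.022 with the block, and 0.358, 0.637 and 0.725 without). *Lef1* was the other gene that fell, while *Axin2*, *Rnf43* and *Znrf3*, all feedback genes of the pathway, did not pass. Against 4OHT, 4 of the 10 passed with the block, 1 higher and 3 lower in E2, beside 21.9% of all rows. Of the 10, 7 were lower and 2 higher in E2 than in 4OHT at each replicate number, and only 3 of the 7 passed. Against DMSO, 4 were lower and 3 higher at each number. The share of all rows with such a shared direction was not counted, so these counts are not read as a result about the targets.

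The sequence before the transcription start was read for the members that RefSeq's promoter table (GRCm38.p6) lists, 33 of 52 with 42 start sites in all, over the 250 bases before each start. The full estrogen response element GGTCANNNTGACC was in 0 of the 42 windows and in 0.0639% of all 32851 windows of that length, both strands read. The TCF/LEF motif CTTTGAT was in 2 windows (4.76%, against 3.21% of all) and CTTTGAA in 1 (2.38%, against 4.46%), in *Wnt5b*, *Wnt11* and *Dkk1*, none of which was expressed above the filter. The AP-1 motif TGANTCA, which reads the same on both strands, was in 3 windows (7.14%, against 6.75%), of *Wnt5b*, *Ror2* and *Dvl2*, and the motif matches did not overlap. Only 20 of the 33 tested members, and 6 of the 13 called with the block, had a window, and the rest were not searched. *Dvl2* was the 1 tested member with a window that held any of the 4 motifs, starting 90 bases before its start site. Its window is shown with the motif in capitals, beside those of *Wnt10b* and *Gsk3b*, whose calls in opposite directions held whichever library was left out and whose windows hold none of the motifs, each 5′ to 3′ on the gene's strand.
Dvl2, chr11:70000342-70000591, forward strand: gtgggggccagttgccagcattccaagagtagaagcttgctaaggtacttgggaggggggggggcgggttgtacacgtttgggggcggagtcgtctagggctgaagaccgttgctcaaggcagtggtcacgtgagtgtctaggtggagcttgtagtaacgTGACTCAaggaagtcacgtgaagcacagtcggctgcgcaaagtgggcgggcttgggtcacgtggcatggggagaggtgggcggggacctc
Wnt10b, chr15:98778151-98778400, reverse strand: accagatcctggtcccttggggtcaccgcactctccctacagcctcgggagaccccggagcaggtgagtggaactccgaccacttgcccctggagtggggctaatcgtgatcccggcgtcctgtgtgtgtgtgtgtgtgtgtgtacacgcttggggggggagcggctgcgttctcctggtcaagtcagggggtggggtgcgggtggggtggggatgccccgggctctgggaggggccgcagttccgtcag
Gsk3b, chr16:38088751-38089000, forward strand: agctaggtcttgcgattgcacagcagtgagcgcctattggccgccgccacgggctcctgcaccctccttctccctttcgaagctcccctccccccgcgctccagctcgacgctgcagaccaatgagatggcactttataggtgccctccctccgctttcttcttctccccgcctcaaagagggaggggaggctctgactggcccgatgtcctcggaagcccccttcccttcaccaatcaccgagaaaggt
A match describes letters and not a bound site, and a window without one says nothing of factors that act from elsewhere.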

How the data were processed

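RNA was sequenced from 9 samples of FVB MOE cells, 3 each with DMSO, E2 or 4OHT, grouped and numbered by their labels. The authors aligned reads to mm10 with TopHat2 2.0.8b and estimated FPKM for known genes of a UCSC annotation with the Cufflinks tools (Cuffdiff 2.1.1), and these deposited FPKM were the values used. Whether further scaling between libraries entered them is not given in the sources used here, and counting error per gene is therefore not given. An exact 0 in a row whose median nonzero value was at least 1 FPKM was taken as missing. limma 3.58.1 in R 4.3.3 was fitted with a variance trend to log2(FPKM + 1) of all 9 samples, with and without the replicate number as a block, and p-values were Benjamini-Hochberg adjusted over all rows of a comparison. The study's own test used no pairing. The scripts were tested on simulated data. Alternatives were zeros kept, a pseudocount of 0.1, no filter, upper-quartile scaling, only the 6 samples compared, and samples or replicate numbers left out. The members and gene lists were chosen with earlier results of these data known. Values of single samples are given for members past the threshold in any comparison, with or without the block, and for the 2 most abundant members of each role (3 where nearly equal). Gene positions came from the GENCODE annotation of GRCm38. *Trabd2b*, *Gsk3a*, *Csnk1g1* and *Amer1* by that symbol were not analysed here.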

Additional observations from a re-analysis of the deposited data

How the results depend on the processing

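Without the replicate block, 0 of the 33 members passed in any comparison under any of the alternatives run, and the block itself moved the count from 0 to 10 for E2 versus DMSO (9 with zeros kept as values) and from 0 to 8 for E2 versus 4OHT (8 with zeros kept). For 4OHT versus DMSO the count was 0 with and without the block under all alternatives. The further alternatives to the blocked fit were chosen after seeing the data. With no filter on low values, 6 members passed for E2 versus DMSO and 5 for E2 versus 4OHT, with more rows tested, and with only the 6 samples compared 6 passed for E2 versus DMSO. With samples or replicate numbers left out, between 3 and 10 members passed for E2 versus DMSO and between 2 and 9 for E2 versus 4OHT. Single samples that took the count past 1.5 times were DMSO replicate 3 and E2 replicate 3 (6 each) in the first, and 4OHT replicate 1 (2) and 4OHT replicate 2 (4) in the second. Whole replicate numbers that did so were 1 (4) and 3 (3) in the first, and 1 (5), 2 (5) and 3 (2) in the second. The share of all rows called also changed between fits, as given above for the fit without replicate number 1. Whether the lower counts were particular to the members was not tested. The 18 fold changes called with the block kept their sign in all 648 recomputed values. That outcome was largely fixed in advance, since each of the 18 went the same way at every replicate number. Many of the 648 values also repeat one another, because the fits with and without the block give the same difference. For E2 versus DMSO, 3 of 10 calls held under all 17 alternatives to the blocked fit, and for E2 versus 4OHT 2 of 8 did. Besides left-out samples, *Fzd2* lost its call against DMSO with zeros kept, no filter and only 6 samples, *Kremen1* with upper-quartile scaling, no filter and only 6 samples, and *Lef1* and *Dvl2* with no filter and only 6 samples. Against 4OHT, *Lrp6*, *Lef1* and *Lgr5* lost theirs with no filter and *Lrp6* with only 6 samples. The cause of the lost calls was not tested. With 3 samples a condition and no counts, changes of low members such as *Wnt10b*, *Lef1* and *Lgr5* are known least well.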
